A study of Mus musculus with 9 samples.

Results

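Livers of mice without Snd1 were compared with livers of wild-type mice in 6 of the 9 RNA-seq libraries of the study, 3 per genotype. The comparison took every gene of the deposited table with a mean normalized count of at least 10 over the 9 libraries, which left 15238 of 19944 genes. The mice were males of the FVB strain, 60 days old, kept on normal chow under light cycles, and the RNA was extracted from liver tissue. WT mice carried the intact gene, KO mice the Snd1 knockout, and KI mice, which serve here only as a further reference and as part of the estimate of the spread, a knock-in of a Tudor domain mutant. The labels give neither the type of the knockout allele nor the hour of collection, and they do not say whether the mice of a group shared a litter or cage, so the p-values measure only the spread between these samples. Libraries are named by genotype and title number, such as KO_1.

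SND1 is a multifunctional RNA-binding protein with a series of nuclease-like folds and a Tudor domain, the part that recognises methylated arginine. It is known as a transcriptional coactivator, as a factor in spliceosome assembly and as a member of the small RNA silencing complex. The liver makes most plasma proteins and carries out most of the body's drug, steroid and bile acid metabolism. During inflammation, interleukin-6 and interleukin-1 acting on hepatocytes raise the secreted acute phase proteins, while many metabolic genes are turned down.

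Snd1 itself checks the labels. Its normalized count was 6951, 8446 and 6512 in WT, 227, 414 and 359 in KO and 5373, 7941 and 5595 in KI. The KO libraries lay far below all others, at a log2 fold change of -4.48 ± 0.23, adjusted p = 8.82e-06. Here and below, a log2 fold change is the difference of group means of log2(normalized count + 1), KO minus WT, followed by its standard error, and adjusted p is limma's value over all genes tested. A value written with ± after a gene is this log2 fold change with its standard error. Genes within 10 Mb of Snd1 on chromosome 6, which can carry linked strain differences, were called in 9 of 79 cases (6 higher and 3 lower, 11.39%), against 8.83% of all genes tested.

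The libraries held 59678412 to 66384374 recovered reads. Alb, which encodes albumin, the main hepatocyte product, stood at 3890486, 3593694 and 2816772 in WT, as in liver tissue. Although the labels name hepatocytes, transcripts of other liver cells were present, such as Clec4f of Kupffer cells at 8221, 4042 and 7229 and Kdr of endothelium at 3638, 3342 and 3197. In such bulk samples, fewer cells of a type and less RNA per cell cannot be told apart. Markers of pancreatic acinar cells took 1.31% of the reads of WT_3, 0.540% of KI_1 and 6.26% of KI_3, against 0.00175 to 0.00526% in the other 6 libraries, all KO libraries included. None of the 17 acinar markers tested was called by limma at adjusted or unadjusted p under 0.05, or by edgeR, whereas DESeq2 called 16 lower in KO.

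In all, 706 genes were higher and 640 lower in KO, which is 4.63% and 4.20% of the genes tested and 8.83% in either direction. These shares are the background for limma's calls in every list of genes below, and the median log2 fold change over all genes was 0.00. Counts at unadjusted p under 0.05 have a larger background. With 0.5 or 5 added to the normalized counts instead of 1, 3800 and 3816 of 15238 genes passed it, both directions together. Over all genes DESeq2 called 1210 higher and 1084 lower, and edgeR 715 and 495. All 3 KO libraries lay below all 3 WT libraries in 14.2% of the genes tested, without regard to size. At least a 2-fold difference separated the groups for 327 of the higher and 315 of the lower genes, at least 4-fold for 116 and 110, and at least 16-fold for 32 and 28. Leaving out WT_3, with its pancreatic transcripts, gave 345 higher and 264 lower genes, and leaving out all 3 libraries with such transcripts gave 21 and 9, in a fit with fewer samples. No gene was called in the opposite direction in any of these fits.

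**Figure D1:**
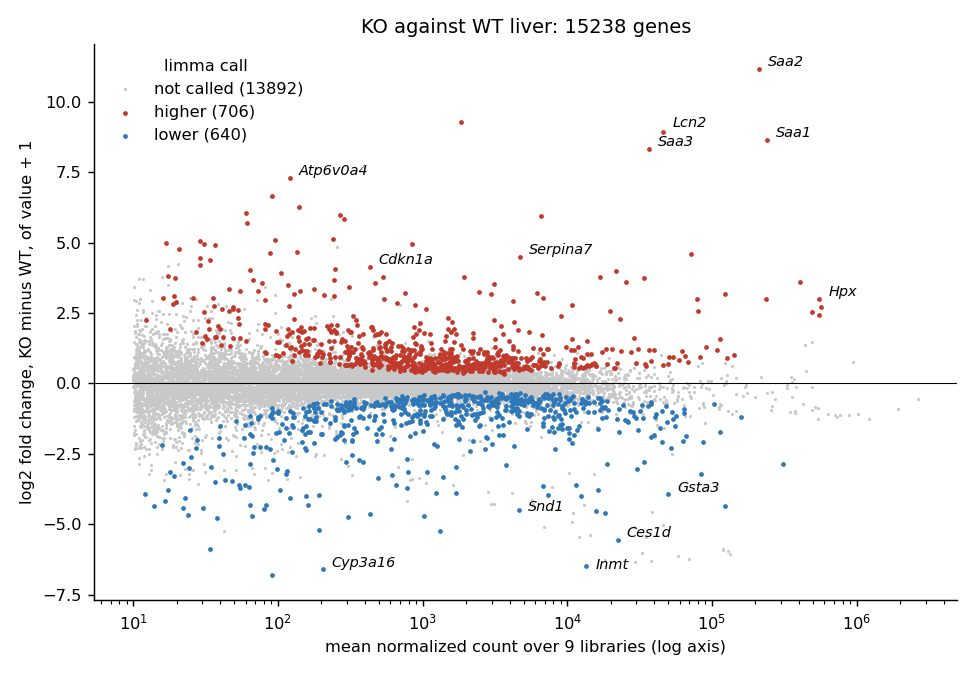
Log2 fold change of KO against WT (vertical axis) against the mean normalized count over the 9 libraries (horizontal log axis) for 15238 genes, 1 point per gene, coloured by the limma call. The 706 higher and 640 lower genes span low and high levels, with Saa2 at the top (11.16) and Cyp3a16 (-6.61) and Inmt (-6.50) near the bottom.

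The KO livers were not alike in the size of the change. In 449 of the 706 higher genes and 467 of the 640 lower genes, KO_1 was the KO library closest to WT. The median log2 deviation from the WT mean was 0.75, 1.08 and 0.97 in KO_1, KO_2 and KO_3 for the higher genes, and -0.68, -1.08 and -1.16 for the lower genes. For the median higher gene KO_1 showed 72.0% of the log2 change of the other KO libraries (quartiles 54.0 and 99.6), and for the median lower gene 62.2% (41.9 and 87.8). The within-group SD of log2 values for lower genes had a median of 0.33 in KO, 0.14 in WT and 0.18 in KI. For higher genes it was 0.25, 0.18 and 0.2, and over all genes tested 0.27, 0.19 and 0.23. Without KO_1 the test called 1104 higher and 1412 lower genes, and without KO_2 266 and 235, so the counts depend on single KO livers. A call that stood in each of the 6 fits that leave out 1 WT or KO library is described below as held. A number in parentheses after the count of a list is the count when the library named is left out. Where none of a list is said to be higher or lower with nothing added, limma, DESeq2, edgeR and an unadjusted p under 0.05 gave none in that direction.

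**Figure D2:**
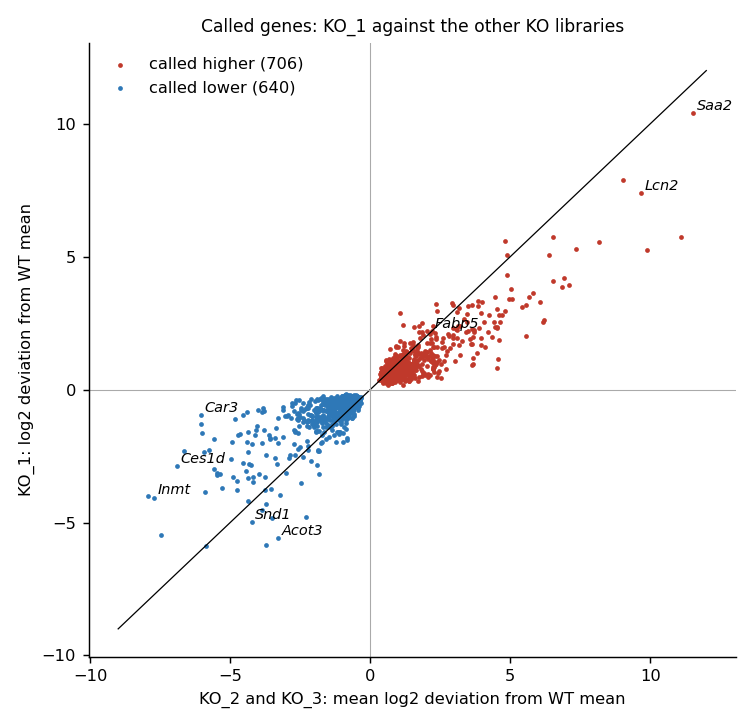
Log2 deviation from the WT mean in KO_1 (vertical axis) against the mean of KO_2 and KO_3 (horizontal axis) for the called genes, 1 point per gene, with the line of equal change. Most points lie between the line and zero, whereas Fabp5, Acot3 and Snd1 lie at or beyond the line.

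Acute phase proteins secreted into plasma were among the higher genes with the smallest p-values. Saa2, a serum amyloid A protein carried on high-density lipoprotein, rose from 246, 264 and 266 in WT to 353401, 737547 and 809849 in KO (11.16 ± 0.32, adjusted p = 8.44e-08). Its paralog Saa1 rose from 1841, 1867 and 1366 to 399691, 810480.1 and 929704. The KI libraries were at 511, 358 and 739 for Saa2 and 4378, 2921 and 5970.2 for Saa1. Lrg1, a leucine-rich glycoprotein of plasma, rose from 4369.9, 6148 and 4893 to 44566, 80547 and 66169.6 (3.61 ± 0.21, adjusted p = 2.15e-05). Fgl1, a hepatocyte-secreted fibrinogen-like protein, rose from 8661, 6045 and 8403 to 104028, 237202 and 259286 (4.61 ± 0.31). Lbp, which presents bacterial lipopolysaccharide, rose from 3467, 4657 and 2660.5 to 16971, 28617 and 29816 (2.80 ± 0.24). KO_1 was the lowest KO library for each of these 5 genes. That it lay above every WT library was fixed, since these genes were picked among those whose groups do not overlap. All 706 higher genes and 639 of the 640 lower genes had such groups, against 4441 of the 15238 genes tested.

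Several leading genes outside the acute phase also rose in all KO livers. Fabp5, an intracellular fatty acid carrier, read 1807, 1620.5 and 2341 in WT and 8657, 8537 and 8863 in KO (2.19 ± 0.14, adjusted p = 4.39e-05), with 1883, 2339.7 and 2251 in KI and the KO libraries close together. Atp11a, a phospholipid flippase, read 586, 625 and 461 in WT and 3989.7, 6248 and 6016 in KO, with KI between them at 1550.1, 1523 and 1113. Slc41a2, a magnesium transporter, rose from 631, 790.0 and 673 to 4092, 8543 and 6823, and Slc3a1, a subunit of the cystine and dibasic amino acid carrier, from 2161, 2694 and 1282 to 14904, 18798 and 15143. Prg4, a lubricating proteoglycan, rose from 1251, 1507 and 963 to 6450.1, 11669.7 and 10795. Ifitm2 and Ly6e, both induced by interferon, rose by 1.62 ± 0.14 and 1.29 ± 0.12, and Icam1, the endothelial and hepatocyte adhesion molecule for leukocytes, by 2.0 ± 0.18.

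Among the lower genes with the smallest p-values, a block of Cyp2c enzymes stood out by number. Cyp2c38 read 2454, 2513 and 1921 in WT and 326, 288 and 180.1 in KO (-3.15 ± 0.25, adjusted p = 1.82e-04). Cyp2c54 fell from 22475, 24933 and 20833 to 2682, 999 and 1088, Cyp2c50 from 25927, 29272 and 26483 to 3964, 1133 and 1637, and Cyp2c37 from 2769, 3421 and 3643 to 333, 123 and 254. Cyp2c39, a retinoic acid hydroxylase, fell from 9849.6, 8374 and 7119 to 1748, 2492 and 1315, and the KI livers were also low for it at 2472, 2889 and 2320.4, so KO and KI differed by a log2 fold change of only -0.51 (adjusted p = 0.172). Cyp2g1, best known from the nose, fell from 395, 432 and 370.5 to 34.5, 15.2 and 29, with KI between at 118, 161 and 173. Reads of near-identical copies, which include the Cyp2c, Cyp3a, Ces1, Gsta, Ugt, Mup, Saa and Orm genes, could be split differently by another counting, so values of single copies in these families are uncertain.

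The other leading lower genes came from scattered pathways. Akr1c19, an aldo-keto reductase, fell from 3162, 3658 and 2806 to 713, 720.2 and 433 (-2.40 ± 0.21, adjusted p = 3.02e-04). Fmo1, a flavin monooxygenase, fell from 11012, 13818 and 11229.8 to 4670.2, 3451 and 2925, and the N-acetyltransferases Nat8 and Nat8f7 fell (-2.79 ± 0.28 and -4.01 ± 0.38). Smaller but even falls were seen for Eif4a2, an RNA helicase of translation initiation, at 15251, 12513 and 14723 in WT and 6890.2, 5500.1 and 6559 in KO. Fam102a, Lrp4 and Aspa fell (-1.46 ± 0.13, -1.28 ± 0.13 and -1.39 ± 0.15). Groups without overlap were a condition for naming all of these leading genes. All 30 leading genes kept their call in every alternative fit except the one without the 3 libraries with pancreatic transcripts, in which 17 of 30 were called. They were picked for the smallest p in these same libraries, so the kept calls are not independent support.

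The promoters of 3 of the largest rises and of a clock gene described below are printed to show the match each holds to a C/EBP or D-box word, and were chosen after the matches were found. They run from 250 to 51 bases before the RefSeq start on GRCm38.p6, 5′ to 3′ on the strand of the gene, with the match in capitals. Saa2 lies at chr7:46751583-46751782 on the plus strand, with TTGCACAA from -183 to -176. Saa1 lies at chr7:46743031-46743230 on the minus strand, with the same word from -182 to -175. Orm2 lies at chr4:63362199-63362398 on the plus strand, with TTGCGCAA from -120 to -113. Per3 lies at chr4:151044716-151044915 on the minus strand, with TTATGTAA from -205 to -198 and from -158 to -151.
Saa2: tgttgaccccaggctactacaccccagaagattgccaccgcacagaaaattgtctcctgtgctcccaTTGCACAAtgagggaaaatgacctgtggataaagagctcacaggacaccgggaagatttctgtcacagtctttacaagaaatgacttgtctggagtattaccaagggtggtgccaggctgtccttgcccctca
Saa1: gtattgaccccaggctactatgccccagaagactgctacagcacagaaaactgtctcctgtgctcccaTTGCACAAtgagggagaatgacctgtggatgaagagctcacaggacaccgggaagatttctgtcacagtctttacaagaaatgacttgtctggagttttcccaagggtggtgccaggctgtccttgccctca
Orm2: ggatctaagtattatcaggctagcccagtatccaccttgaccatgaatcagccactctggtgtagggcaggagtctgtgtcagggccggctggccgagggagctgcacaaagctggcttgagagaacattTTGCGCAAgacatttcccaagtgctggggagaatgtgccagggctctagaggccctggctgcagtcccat
Per3: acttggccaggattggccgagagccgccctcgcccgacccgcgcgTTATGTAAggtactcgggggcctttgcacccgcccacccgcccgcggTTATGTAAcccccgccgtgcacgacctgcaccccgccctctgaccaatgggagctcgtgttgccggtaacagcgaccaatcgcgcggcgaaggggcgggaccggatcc
The full windows of Saa1 and Saa2, 250 bases each, are 79.1% equal over 249 aligned bases, which shows how alike these paralogs are upstream of their start. Within 250 bases before the start, on either strand, the C/EBP word TTGCNNAA was found in 12.5% of 408 higher genes, 12.5% of 353 lower genes and 7.98% of all 8629 genes tested that have 1 window in the table. Among genes changed at least 4-fold, it was found in 25% of 64 higher and 18.0% of 61 lower genes. The STAT word TTCNNNGAA was in 7.35% of higher, 4.82% of lower and 6.36% of all genes, and in 15.6% and 9.84% of those changed at least 4-fold. For the D-box word TTATGNAA the shares were 2.45%, 5.10% and 2.11%, and 4.69% and 11.5% of those changed at least 4-fold. The NF-kB consensus was in 9.80%, 8.22% and 8.54%, and the E-box CACGTG in 7.35%, 10.2% and 8.34%. Words of the liver factors HNF4 and HNF1 were rarer. The HNF4 word was in 1.47% of higher, 1.7% of lower and 0.556% of all genes. Among those changed at least 4-fold it was in 3.12% (2 of 64) and 6.56% (4 of 61). For the HNF1 word the shares were 1.23%, 1.13% and 0.417%, and 4.69% (3 of 64) and 1.64% (1 of 61). These matches are descriptions of letters and were not tested.

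**Figure D3:**
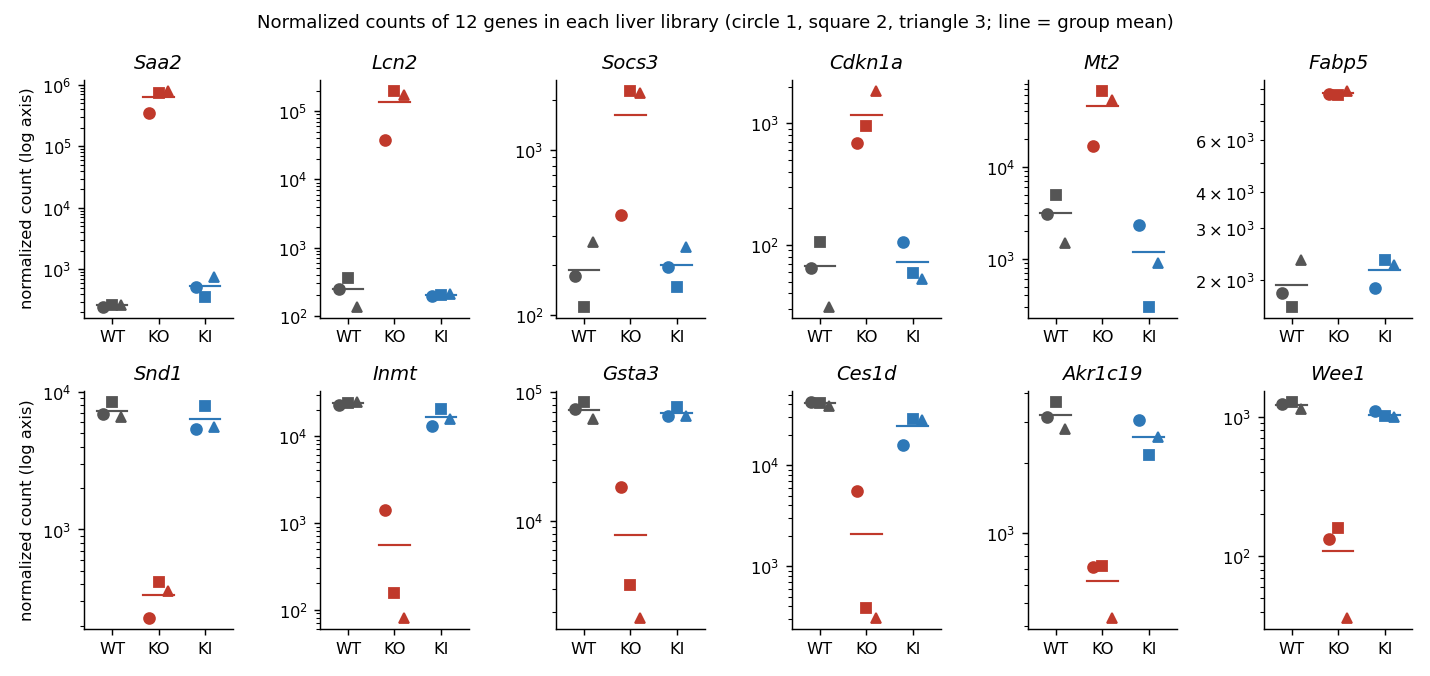
Normalized counts (log axes) of 12 genes in each library of WT, KO and KI liver, with the group mean as a line and the replicate number as the symbol. For Lcn2, Socs3, Mt2, Inmt, Gsta3 and Ces1d KO_1 lies between WT and the other KO libraries, whereas the KO libraries of Fabp5 lie together at 8657, 8537 and 8863.

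Cytokine receptors, Stat3 and feedback inhibitors were among the higher genes of signalling upstream of the acute phase response. Of 52 tested genes of interleukin-6, interleukin-1 and tumour necrosis factor signalling, 10 were higher and 1 lower, with a median log2 fold change of 0.24. None of the 6 tested ligands was called (1 was higher at unadjusted p under 0.05 and by DESeq2 and edgeR). Il1rn, the secreted interleukin-1 antagonist, read 85.4, 24.1 and 44.1 in WT and 70, 871 and 828 in KO (adjusted p = 0.0559), and Il1b read 81.5, 45.3 and 86.1 in WT and 14.2, 38.5 and 382 in KO, so Il1rn was high in 2 KO livers and Il1b in 1, with overlapping groups.

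Of 15 receptors, 5 were higher. Il1r1, the interleukin-1 receptor, rose from 3745, 5391 and 1927 to 13163, 23054 and 18480.2 (2.39 ± 0.33, adjusted p = 0.00299). Il22ra1, the interleukin-22 receptor of hepatocytes, rose from 169, 162 and 226 to 471, 561 and 552 (1.51 ± 0.23, adjusted p = 0.00472). Il6st, the shared signalling chain of the interleukin-6 family, and the tumour necrosis factor receptors Tnfrsf1a and Tnfrsf1b rose by 0.60 ± 0.15, 0.69 ± 0.14 and 0.76 ± 0.15. Stat3, the transcription factor activated by interleukin-6, was the 1 higher gene of 16 transducers, at 4834, 5467 and 3965 in WT and 8743, 14206 and 10649 in KO (1.22 ± 0.19, adjusted p = 0.00534).

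Among 10 feedback inhibitors 4 were higher and 1 lower. Socs3, which blocks the interleukin-6 receptor, was at 172, 113 and 278 in WT and 401, 2274 and 2192 in KO, with KO_1 far below the other KO livers (2.84 ± 0.60, adjusted p = 0.0181). Nfkbiz, a nuclear partner of NF-kB, rose from 276, 219 and 178 to 422, 773 and 683, and Bcl3 and the ribonuclease gene Zc3h12a rose by 1.03 ± 0.25 and 1.0 ± 0.26. Pias3, an inhibitor of STAT3, fell from 459, 431 and 426 to 262, 223 and 243. The calls of Il1r1, Il22ra1, Stat3 and Nfkbiz held, and that of Socs3 did not. Leaving out KO_2 left 4 higher genes of the 52, and leaving out KO_1 gave 17.

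The acute phase genes were called together. Of 35 tested, 27 were higher and 1 lower, with a median of 2.57, and their share of all reads was 2.65 to 2.93% in WT, 8.79, 21.2 and 22.2% in KO and 2.07 to 2.98% in KI. Saa3, an amyloid A protein also made by macrophages, read 173, 164 and 160.2 in WT and 6357, 114488 and 210442 in KO. Apcs, the pentraxin serum amyloid P, rose from 6926, 5284 and 4803 to 29053, 107188 and 138727. Orm2, an acid glycoprotein that carries drugs in plasma, rose from 316, 246 and 304 to 9576, 22850.2 and 25353 (5.94 ± 0.31, adjusted p = 8.82e-06), while its paralog Orm3 was highest in KO_1, at 70, 109.8 and 83.1 in WT and 473, 207 and 188 in KO. Steap4, a metalloreductase, rose from 5003, 5689 and 7923 to 15141, 56252 and 55273. The mannose-binding lectins split: Mbl1 rose from 13985, 11742 and 13569 to 15849, 22659 and 22919 whereas Mbl2 fell from 17695, 14571 and 18269 to 11219.7, 8852 and 10948. Without WT_3 the count was 21 higher and 0 lower, without KO_2 it was 20, and without the 3 libraries with pancreatic transcripts 5.

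The genes that gained the largest shares of the reads were plasma proteins. Hpx, the heme scavenger hemopexin, rose from 166984, 141784 and 143405 to 565984, 1793239 and 1732029. Fga, a fibrinogen chain, rose from 177447, 185481 and 194286 to 707756, 1861909 and 1381773, and Fgb from 226479.5, 197375 and 219063 to 641309, 1683556 and 1434507. Hp, the haemoglobin binder haptoglobin, rose from 86574, 94125 and 65806 to 600716, 1287417 and 1253243, and Itih4, an inter-alpha-trypsin inhibitor heavy chain, from 68590.1, 77610.3 and 55295 to 298906, 758029 and 656663. KO_1 was the lowest KO library for each of them. It lay above all WT libraries, as in all 706 genes called higher, and the calls of all 5 held.

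Of 23 plasma carriers and other genes classed as negative acute phase proteins, 1 was higher (none without any library but KO_1) and 3 lower (6 without KO_1). Pon1, the paraoxonase of high-density lipoprotein, fell from 45836, 43401 and 43656 to 19865, 12409 and 10859 (-1.67 ± 0.22, adjusted p = 0.00195). Serpina6, the corticosteroid-binding globulin, fell from 17259, 14965 and 14653 to 7279, 3013 and 2168 (-2.10 ± 0.35, adjusted p = 0.00705), and the apolipoprotein gene Apoa2 from 178867, 166802 and 164327 to 87660.3, 38691 and 40558. Ambp, the precursor of alpha-1-microglobulin and bikunin, rose by 0.92 ± 0.22.

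As lists, complement and coagulation genes had smaller median changes than the acute phase genes. Of 33 complement genes 8 were higher and 3 lower, with a median of 0.30. Serping1, the C1 inhibitor, rose from 47561, 48991 and 41829 to 82972, 87610.3 and 75976. C8a, a chain of the membrane attack complex, was highest in KO_1, at 45756, 49301 and 47616 in WT and 103264, 96512 and 79239.6 in KO (0.96 ± 0.17, adjusted p = 0.0096), while C8g, which encodes another chain of the same protein, fell (-0.68 ± 0.18). Cd59a, the membrane inhibitor of that complex, fell from 3954, 3467 and 3547 to 2347, 2105 and 1813 (-0.81 ± 0.12, adjusted p = 0.00384) and held its call. The number higher was 0 without WT_1 and 10 without KO_1, and the number lower 1 without KO_2, WT_1 or WT_3.

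Of 32 coagulation genes 9 were higher and 1 lower. The higher genes include the fibrinogen genes Fga, Fgb and Fgg, so this count is not separate from the plasma proteins above. Cpb2, which slows fibrinolysis, rose from 21287, 20624 and 22561 to 34939, 60305 and 59804 (1.22 ± 0.21, adjusted p = 0.00735) and held its call. Thbd, the thrombin receptor thrombomodulin, and Kng2, a kininogen, rose by 1.47 ± 0.36 and 0.68 ± 0.16, and F13b, a carrier chain of the fibrin cross-linking factor, fell (-0.66 ± 0.14). Leave-one-out fits gave 4 to 10 higher coagulation genes.

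Serpins, protease inhibitors and hormone carriers of plasma, moved in both directions, with 7 higher (3 without KO_2, WT_1 or WT_3 and 9 without KO_1) and 3 lower (1 without KO_2, WT_1 or WT_3 and 4 without KO_1) of 37 and a median of -0.14. Serpina7, the thyroxine-binding globulin, rose from 603, 466 and 380.5 to 5046, 10946 and 22610.0 (4.50 ± 0.49, adjusted p = 9.41e-04). Serpina3n, an antichymotrypsin-like inhibitor, rose from 22296, 21617 and 17828 to 67108, 324381 and 199668, and Serpina11 from 3680.3, 3464 and 3601 to 6862, 7026 and 6201 with little spread. Serpina12, the adipokine vaspin, fell from 6232, 2985 and 6446 to 2217, 1298 and 1879. The calls of Serpina7, Serpina3n, Serpina11 and Serpina6 held.

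Chemokines and interferon response genes showed few calls, and antigen presentation genes somewhat more. Of 17 chemokines none was higher and 1 was lower by limma, with 5 higher and 4 lower at unadjusted p under 0.05, 3 and 3 by DESeq2 and 1 and 1 by edgeR. Cxcl9, an interferon-gamma target that attracts T cells, fell from 241, 166 and 273 to 82.2, 62.8 and 75.1 (-1.59 ± 0.27, adjusted p = 0.00746) and held its call. Cxcl1, which attracts neutrophils, read 176, 144 and 128 in WT and 169, 3473 and 1783 in KO, level with WT in KO_1 and not called (adjusted p = 0.07). Of 26 interferon response genes limma and edgeR called Stat2 alone higher (2 by DESeq2, 4 at unadjusted p under 0.05), at 1483, 1559 and 1667 in WT and 2212, 3716 and 2926 in KO, and its call was lost without WT_1. Of 16 antigen presentation genes 4 were higher (2 without KO_3 or WT_1), among them the class I heavy chain H2-D1 at 29905, 30330.0 and 29581 in WT and 47403, 49844 and 57835 in KO (0.78 ± 0.14, adjusted p = 0.00827) and Tapbp, which loads peptide on class I molecules (0.68 ± 0.11), and both held.

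The metallothioneins rose, and the other metal handling genes were split in direction. Mt1, a metallothionein that binds zinc and copper, rose from 3589, 4885 and 1801 to 21922, 89874 and 65837 (4.0 ± 0.73), and Mt2 from 3086, 4995 and 1477 to 16736, 67464 and 53443 (3.79 ± 0.74). Slc39a1, a zinc importer, and Slc30a10, a manganese exporter, rose by 0.81 ± 0.15 and 1.13 ± 0.22, so 4 of 9 metal genes were higher (2 without WT_3) and none lower, 5 had a positive and 4 a negative log2 fold change, and the median was 0.29. Slc39a14, a zinc importer induced by interleukin-6 and named here after its values were seen, read 11802, 12595 and 11199.8 in WT and 16400.1, 39337 and 26635 in KO (1.12 ± 0.26, adjusted p = 0.0268). Mt1 and Slc39a1 held their calls.

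Of 35 iron and heme genes 6 were higher (3 without KO_2, WT_1 or WT_3) and 1 lower (4 without KO_1). The higher genes include Hp and Hpx, already described among the plasma proteins. Cp, the ferroxidase ceruloplasmin, rose from 71751, 73928 and 63830.1 to 159533, 255656 and 224009 (1.58 ± 0.24, adjusted p = 0.00413) and Slc11a2, an iron importer, by 0.73 ± 0.16. Hamp2, a copy of the hepcidin gene with no clear role in iron, fell from 612, 1013 and 1259.7 to 101, 14.2 and 31.7 (-4.64 ± 0.56, adjusted p = 0.0015). Hamp, the iron hormone hepcidin itself and named after its values were seen, read 56468, 40548 and 52730.4 in WT and 41512, 58331 and 56212 in KO, with overlapping groups.

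Most transcripts for making and exporting secreted proteins had a positive log2 fold change, with few calls. Of 63 genes of endoplasmic reticulum folding and secretion 6 were higher and none lower (3 at unadjusted p under 0.05), with 51 positive and a median of 0.33. In the subset for translocation and export, 28 of 29 had a positive log2 fold change and 3 were called. The mean log2 deviation of that subset was 0.14, 0.63 and 0.35 in KO_1, KO_2 and KO_3, against -0.12 to 0.15 in WT. Sec61a1, the pore of the translocation channel, read 11083, 11606 and 12432 in WT and 16703, 22904 and 16567 in KO (0.66 ± 0.16, adjusted p = 0.0318). Calr, the lectin chaperone calreticulin, rose by 0.69 ± 0.18, and Eif2ak3, the stress kinase PERK, and Ppp1r15a, which reverses its effect on translation, rose by 0.89 ± 0.23 and 0.63 ± 0.13. The count of 6 was 0 without KO_2 and without WT_1, and 18 without KO_1.

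A minority of lysosomal genes rose. Of 17 lysosomal genes limma called 4 higher and none lower (1 lower by DESeq2 and at unadjusted p under 0.05, none by edgeR), led by Ctsz, a carboxypeptidase-type cathepsin, at 8332, 8966 and 8592 in WT and 16163, 15782 and 15778 in KO (0.88 ± 0.10, adjusted p = 9.55e-04), with the KO libraries close together. The cathepsin genes Ctsa and Ctsl rose by 0.67 ± 0.11 and 0.61 ± 0.15. Of 17 subunits of the proton pump that acidifies lysosomes 4 were higher, including the accessory subunits Atp6ap2 (2226, 2068 and 2229 in WT and 3427, 4420.3 and 4128 in KO) and Atp6ap1 (0.47 ± 0.10). A subunit found mainly in kidney, Atp6v0a4, was nearly absent in WT at 0, 3.85 and 0 and present in KO at 78.1, 547 and 426, a call lost without KO_2. Its gene lies within 10 Mb of Snd1 on chromosome 6, where linked strain differences can occur, and their part was not tested. Of 14 autophagy genes limma called none higher (3 at unadjusted p under 0.05, 2 by DESeq2, none by edgeR) and 2 lower, Atg5 (-0.51 ± 0.10) and Gabarapl1 (-0.64 ± 0.13).

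Atp6v0a4, whose gene lies near Snd1, belongs to a short list of genes that were close to zero in 1 genotype, named after their values were seen. A2m, a secreted protease trap, read 2.88, 0.96 and 6.01 in WT and 199.8, 7844 and 8476 in KO. Trat1, an adaptor of the T cell receptor, read 3.84, 0 and 1.0 in WT and 83.2, 279.6 and 424 in KO, although 1 of 15 T and NK cell markers, Trat1 itself, was called by limma, DESeq2 and edgeR. Cyp3a16, a P450, read 18.2, 1056 and 701 in WT and 14.2, 0 and 0 in KO, so WT_1 was as low as KO_1. WT_1 was likewise far below WT_2 and WT_3 for Cyp3a41a, Cyp3a41b and Cyp3a44.

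Adhesion and matrix remodelling genes were higher in 6 of 22 cases (4 without KO_2) and lower in none. Itga5, the fibronectin receptor chain, read 841, 916 and 676 in WT and 1977, 2085 and 1656 in KO (1.24 ± 0.15, adjusted p = 0.00134), and Itga2, a collagen receptor chain, 11.5, 14.4 and 14 in WT and 138, 877 and 1018 in KO (5.13 ± 0.63, adjusted p = 0.00163). Mmp14, a membrane-bound matrix protease, rose from 1043, 1154 and 1113 to 1869, 2714 and 2544. Timp1, an inhibitor of such proteases, was at 1.92, 0 and 2.0 in WT and 97.4, 78 and 41.6 in KO, and its call was lost without KO_2. Of 27 collagen genes limma called Col15a1 alone, at 119, 185 and 343 in WT and 478, 940.0 and 1146 in KO, whereas DESeq2 called 6 higher and 1 lower, edgeR 2 higher, and 6 were higher and 3 lower at unadjusted p under 0.05.

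Markers of some other cells were also higher, and their part in the results was not tested. The mean log2 deviation of 11 monocyte and neutrophil markers was 0.66, 2.34 and 3.18 in KO_1, KO_2 and KO_3, against 0.30, -0.71 and 0.41 in WT, and 2 were higher (1 without any library but KO_1 and 5 without KO_1). Prtn3, a granule protease, read 0.96, 8.67 and 6.01 in WT and 274, 482 and 452 in KO (6.26 ± 0.64, adjusted p = 6.96e-04) and held its call. Mmp8, a neutrophil collagenase, read 1.92, 0 and 6.01 in WT and 10.1, 112 and 146 in KO, and the calprotectin genes S100a8 and S100a9, not called, read 28.4, 226 and 404 and 52.7, 437 and 771 in KO against 47, 8.67 and 32 and 60.4, 20.2 and 93.1 in WT. KO_1 lay within the WT range for both calprotectin genes. Summed over the markers, 2.77e-04 to 6.61e-04% of the reads were theirs in WT, and 8.61e-04, 0.00265 and 0.00464% in KO_1, KO_2 and KO_3. Of the 19 markers listed, 5 were not analysed here because the table used has no row for them, and 3 were under the minimum mean.

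Of 16 Kupffer cell markers 3 were higher (1 without KO_3, WT_1, WT_2 or WT_3) and none lower. Mpeg1, a pore-forming protein of macrophages, read 4231, 2796 and 4468 in WT and 8768, 8213 and 10335 in KO and held its call, and the scavenger receptors Marco and Cd163 rose by 1.75 ± 0.44 and 1.24 ± 0.33. The list as a whole stood at 0.08, -0.20 and 1.0 in KO_1, KO_2 and KO_3, with WT from -0.54 to 0.33, so only KO_3 lay outside WT. The summed share of reads was 0.0329 to 0.0611% in WT and 0.0527, 0.0451 and 0.106% in KO, and no Kupffer marker was at 0. None of 15 sinusoidal endothelial markers was called (1 was lower at unadjusted p under 0.05, none by DESeq2 or edgeR). Lum, a matrix proteoglycan of fibroblasts, and Timp1 were the 2 higher of 19 stellate cell markers, and Sox9 the 1 higher of 8 cholangiocyte markers, at 44.1, 24.1 and 41 in WT and 101, 97.2 and 104 in KO. Of 14 hepatocyte markers limma called Fgb higher and none lower (4 lower at unadjusted p under 0.05, 5 without KO_1), whereas DESeq2 called 2 higher and 2 lower and edgeR 1 and 0.

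**Figure D4:**
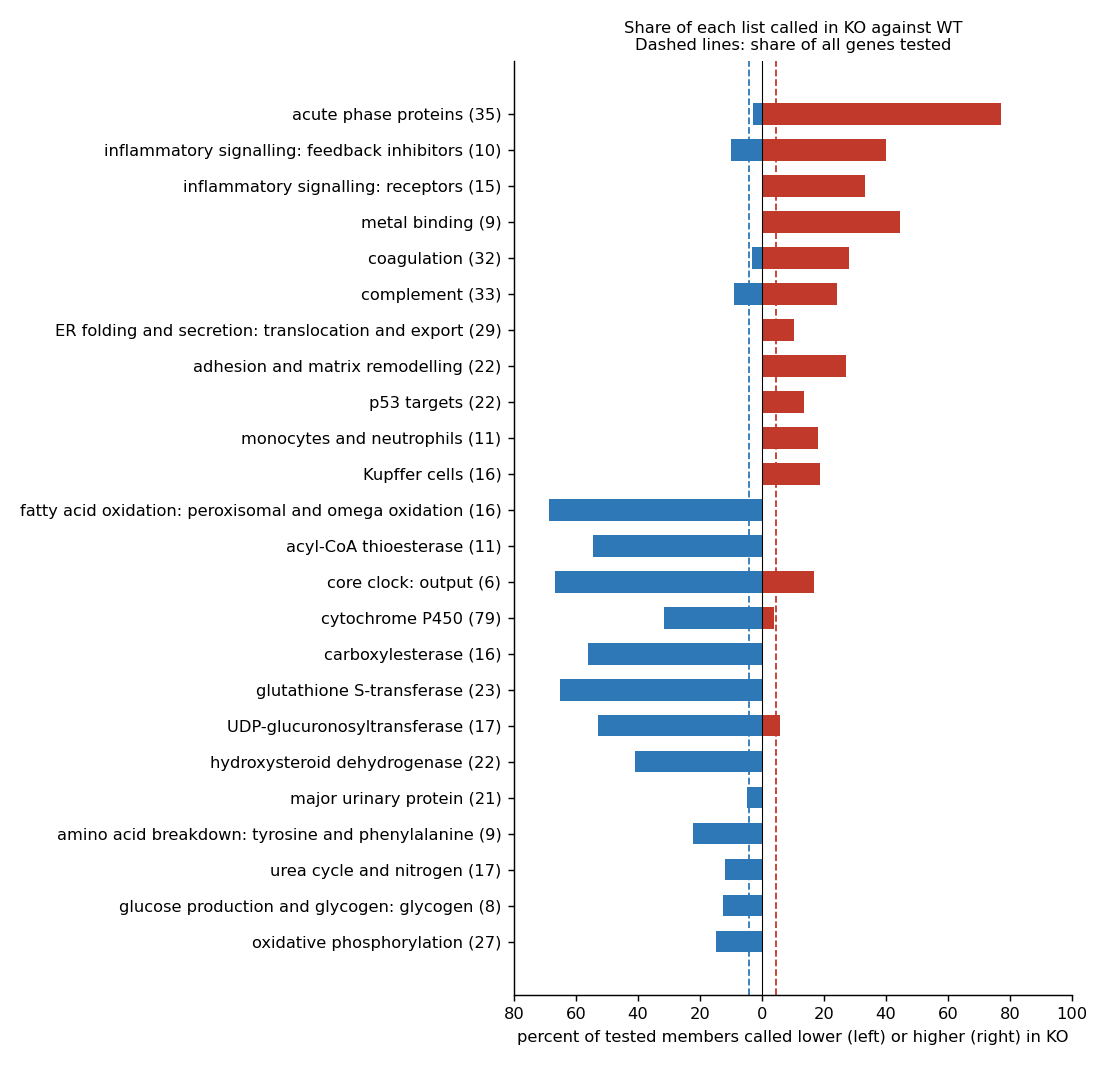
Share of the tested members of each list (number in parentheses) called lower (left, blue) or higher (right, red) in KO, with dashed lines at the shares of all genes tested, 4.63% higher and 4.20% lower. Acute phase genes reach furthest to the right (27 of 35), and peroxisomal and omega oxidation (11 of 16) and clock output genes (4 of 6) furthest to the left.

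Among stress and growth genes, the arrest gene Cdkn1a stood apart. Cdkn1a, the cyclin-dependent kinase inhibitor p21, rose from 64.3, 106 and 31 to 683, 948 and 1855 (4.13 ± 0.48, adjusted p = 0.00134) and held its call. Of 22 p53 targets 3 were higher (1 without KO_2, KO_3, WT_1 or WT_3 and 5 without KO_1) and none lower, the others being Gadd45b (12.5, 30.8 and 7.01 in WT and 57.8, 211 and 257 in KO) and Trp53inp1 (0.91 ± 0.25). Of 24 cell cycle genes none was higher and 2 were lower (0 without any library but KO_1 and 6 without KO_1), the replication clamp Pcna (-0.45 ± 0.11) and the transcription factor E2f1 (-1.06 ± 0.27). Of 19 immediate early genes 2 were higher (0 without KO_2, WT_1 or WT_2 and 7 without KO_1) and 1 lower. The AP-1 component Junb rose from 119, 108 and 217 to 346, 1141 and 759 and the phosphatase Dusp6 by 0.88 ± 0.23, while the small Maf protein Maff fell from 483, 377 and 396 to 136, 194 and 176.

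Growth hormone and insulin-like growth factor genes were divided between 3 higher (0 without KO_2 or WT_1 and 4 without KO_1) and 3 lower (0 without KO_3, WT_1, WT_2 or WT_3 and 6 without KO_1) of 27. Igfbp1, a binding protein that rises with fasting and inflammation, read 693, 860.3 and 335 in WT and 2615, 11337 and 10347 in KO (3.52 ± 0.71). Igf1 fell from 44953, 42757 and 46157 to 28973, 31607 and 24439.7 (-0.66 ± 0.15, adjusted p = 0.0234), and the receptors Ghr and Prlr fell (-1.16 ± 0.29 and -0.89 ± 0.21), with Ghr close to WT in KO_1 (28784, 12747 and 11652 against 35676, 36140.4 and 37151). Egfr, the epidermal growth factor receptor, was highest in KO_1, at 19082, 32705 and 15085 in WT and 63631, 52605 and 33470.3 in KO.

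Liver transcription factors moved in both directions around a median of 0.00. Of 36, limma called 2 higher (none without KO_2 or WT_3) and 3 lower. DESeq2 called 7 and 3 and edgeR 2 and 3, and 7 were higher and 7 lower at unadjusted p under 0.05. The median was 0.17 for the 15 lineage factors and -0.21 for the 21 ligand-sensing receptors. Hnf4a, the central hepatocyte factor and named after its values were seen, read 36837, 37079 and 29444 in WT and 42353, 49575 and 37084 in KO and was not called. Nr1i3, the constitutive androstane receptor that controls drug-metabolising genes, fell from 7841, 6128 and 5005 to 3207, 2853 and 2688 (-1.10 ± 0.20, adjusted p = 0.00919) and held its call. Foxa3, a forkhead factor, rose by 0.67 ± 0.14, and Nr2f2, an orphan nuclear receptor, fell (-0.70 ± 0.16).

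Between 2 and 25 members of each family of conjugating and oxidising enzymes fell, and the family means lay closer to WT in KO_1 than in the other KO livers. Of 79 P450 genes 3 were higher and 25 lower, with a median of -0.82. The mean log2 deviation was -0.60, -1.56 and -1.70 in KO_1, KO_2 and KO_3. The lower count ran from 12 without KO_2 to 42 without KO_1. Cyp3a11, the most abundant drug-oxidising P450 here, fell from 478939.7, 535760.3 and 452382 to 271353, 31889 and 35095, and Cyp2c29 from 122407, 154970.1 and 116226 to 73042, 5662 and 6580.2, each with KO_1 nearer to WT than to the other KO livers, and neither call held. The 3 higher members went against the family. They were Cyp3a13, an enzyme also of gut (2085, 2669.6 and 1999 in WT and 5364, 10808 and 9785 in KO), Cyp17a1, a hydroxylase of androgen synthesis (132, 139.7 and 133 in WT and 372, 741 and 379 in KO), and Cyp4f16 (1.56 ± 0.31).

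The carboxylesterases, which cleave esters and lipids, had 9 of 16 members lower (5 without WT_3 and 14 without KO_1) and none higher, with a median of -1.87. Ces1d fell from 42380.3, 41757 and 38481 to 5557, 388 and 306, Ces1e from 23888, 17773 and 17662 to 4945, 977 and 859.6, and Ces1g and Ces1b fell too (-3.65 ± 0.65 and -1.85 ± 0.31), and these 4 calls held. The family deviated by -0.75, -2.69 and -3.22 in KO_1, KO_2 and KO_3. Of 23 glutathione transferases 15 were lower and none higher (2 at unadjusted p under 0.05), with a median of -1.22. Gsta3 fell from 73707, 83995 and 62309 to 18415, 3230.2 and 1784 and Gsta2 from 1109, 2668 and 1359.8 to 171, 42.5 and 29, whereas Gstt2 was evenly lower at 1600.3, 1719 and 1356 against 2975, 3461 and 3182. The count of lower transferases was 7 without KO_2, WT_1 or WT_2.

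Of 17 UDP-glucuronosyltransferases 9 were lower (3 without KO_2 or WT_1 and 12 without KO_1) and 1 higher. Ugt2a3 fell from 22903, 21321 and 22619.8 to 10996, 6850.3 and 5055 (-1.62 ± 0.23), and the Ugt1a isoforms Ugt1a9 and Ugt1a10 fell (-1.75 ± 0.28 and -1.74 ± 0.32). Ugt2b37 moved the other way, from 348, 205 and 519.7 to 3136, 1515 and 1944 (2.65 ± 0.42, adjusted p = 0.00541), and was highest in KO_1. Of 8 sulfotransferases 3 were lower (5 without KO_1), among them Sult1b1 (-1.56 ± 0.18) and the abundant bile acid sulfotransferase gene Sult2a8, from 60424, 52137 and 64333 to 27105, 11421 and 8549. Hydroxysteroid dehydrogenases and aldo-keto reductases of the 1c class had 9 of 22 lower, with 1 without KO_2 and 18 without KO_1. Major urinary proteins, male pheromone carriers, had a median of -1.01. Of 21, limma called Mup5 lower, DESeq2 9 and edgeR 2, 7 were lower at unadjusted p under 0.05, and limma called 0 without KO_2, KO_3, WT_2 or WT_3 and 18 without KO_1. The family deviated by -0.11, -1.52 and -1.26 in KO_1, KO_2 and KO_3.

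Support genes of the same chemistry were also lower in part. Cyb5a, the electron donor cytochrome b5, fell (-1.10 ± 0.21) and Pgrmc1, a heme-binding P450 partner, did too (-0.82 ± 0.21). Of 25 liver transporters 1 was higher and 5 lower (0 without KO_2, WT_1 or WT_2 and 15 without KO_1). The toxin exporter Slc47a1 fell from 6006, 5364 and 5348 to 3689.5, 1895 and 1439.7, the export pumps Abcc3 and Abcc2 fell (-1.23 ± 0.31 and -0.78 ± 0.21), and the canalicular flippase Atp8b1 rose from 1994, 2476 and 2417 to 4371, 5653 and 4199 and held its call. Of 20 genes of the NRF2 redox response 1 was higher and 3 lower (1 without KO_2, KO_3, WT_1 or WT_3 and 7 without KO_1). Ephx1, the epoxide hydrolase, fell from 14974, 16833 and 14770.5 to 8819, 4643 and 3992, and Nfe2l2, which encodes NRF2, from 3144, 2347 and 2490.3 to 1836, 1849.6 and 1851. Srxn1, a repair enzyme of peroxiredoxins, rose by 0.38 ± 0.09.

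Peroxisomal and omega oxidation genes of fatty acids were lower by like amounts in the 3 KO livers, taken as a list. Of 16 genes 11 were lower and none higher, 15 had KO below WT without overlap, and the median was -1.62. The mean log2 deviation was -1.68, -1.80 and -1.81 in KO_1, KO_2 and KO_3, -0.11 to 0.07 in WT and -1.63, -0.36 and -0.67 in KI. Cyp4a10, an omega hydroxylase, fell from 2591, 3316 and 2217 to 136, 207 and 201 (-3.90 ± 0.64). Ehhadh, the peroxisomal bifunctional enzyme, fell from 14872, 16562 and 13844 to 5915, 3496 and 2788, the thiolase gene Acaa1b from 31268, 29376 and 33062 to 8803, 2795 and 3134, and the fatty aldehyde dehydrogenase gene Aldh3a2 from 14475, 13673 and 12031 to 4512, 2081 and 2040.5. The calls of Ehhadh, Acaa1b and Aldh3a2 held. KO_1 was the KO library nearest to WT for these genes and the furthest for Cyp4a10, so the like amounts hold for the list mean and not for each gene. Mitochondrial oxidation and ketone genes had 2 of 17 lower, with a median of -0.33. Of the 33 genes of both subsets 13 were lower, with 8 without KO_2, KO_3, WT_1 or WT_2 and 17 without KO_1. A test of the difference between the subsets was not made.

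The acyl-CoA thioesterases, which release free fatty acids from their CoA esters, had 6 of 11 lower (4 without any library but KO_1) and none higher. Their mean log2 deviation was -1.05, -1.06 and -1.0 in KO_1, KO_2 and KO_3. Acot3 read 428, 255 and 133 in WT and 4.06, 35.5 and 16.3 in KO, lowest in KO_1, with 33.3, 119 and 69.5 in KI. Acot1 fell from 1287, 1282 and 836 to 320.5, 104 and 154 and Acot4 from 3103, 2094 and 3120.1 to 832, 1052 and 1156, and Acot2 fell (-1.81 ± 0.26). All 4 of these calls held. Acot1 also belongs to the fatty acid oxidation list above, so the lists overlap.

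**Figure D5:**
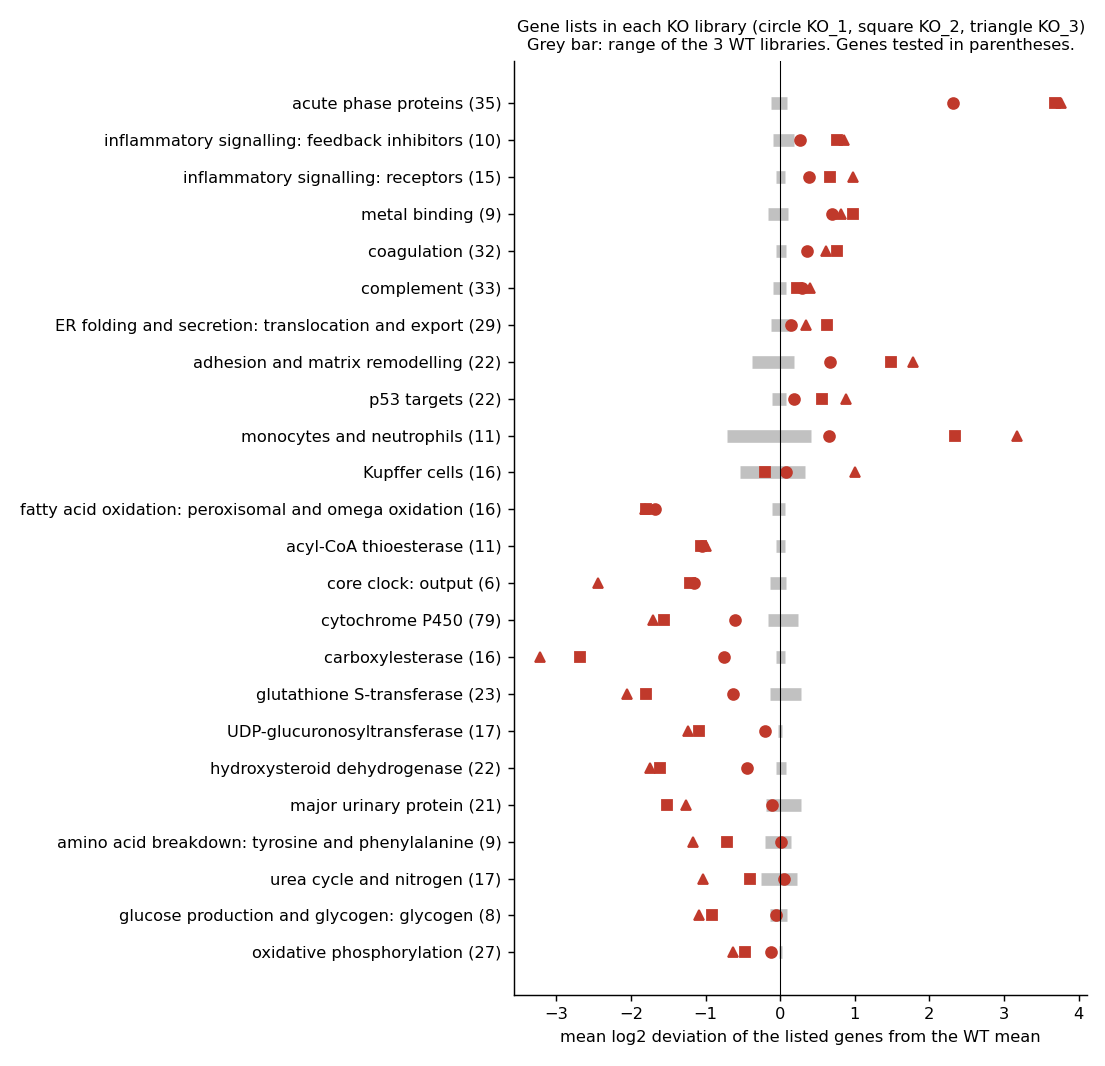
Mean log2 deviation from the WT mean (horizontal axis) of the tested genes of each list, with the 3 KO libraries as red symbols and the range of the 3 WT libraries as a grey bar. The list means of the KO libraries lie close together for peroxisomal oxidation and acyl-CoA thioesterases, lists that overlap in Acot1. For carboxylesterases KO_1 lies at -0.75 and the other KO libraries at -2.69 and -3.22.

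Nitrogen and amino acid lists had a mean near WT in KO_1 and under it in the other KO livers. Urea cycle and related genes, 2 of 17 of them lower (0 without WT_1 or WT_2 and 9 without KO_1), deviated by 0.05, -0.41 and -1.04 in KO_1, KO_2 and KO_3. Otc, a urea cycle enzyme of mitochondria, fell from 30788, 31079.6 and 30942 to 24049, 10682 and 7595, and the alanine transaminase gene Gpt2 from 37609, 38441 and 29104 to 21123, 19110.5 and 13867. Of 47 amino acid breakdown genes 2 were higher and 6 lower (2 without KO_2, WT_1, WT_2 or WT_3 and 27 without KO_1). Afmid, of the tryptophan pathway, fell from 2498, 2826 and 2008 to 1081, 498 and 439.8 (-1.97 ± 0.28, adjusted p = 0.00349), and Nampt, which makes NAD from nicotinamide, from 5791, 6122 and 7352 to 2778, 3266 and 2938 (-1.10 ± 0.12, adjusted p = 0.00111). Sdsl, related to serine dehydratase, rose from 197, 330.4 and 275 to 660.2, 1293 and 789. The 9 tyrosine and phenylalanine genes deviated by 0.01, -0.71 and -1.17 in KO_1, KO_2 and KO_3, with 2 lower.

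Methyl group metabolism held genes that changed in opposite directions, 4 higher and 5 lower (2 without KO_2 or WT_1 and 12 without KO_1) of 29. Nnmt, which methylates nicotinamide, rose from 1858, 1763 and 1142 to 4733, 9302 and 5785 (2.03 ± 0.26, adjusted p = 0.00179). The choline kinase gene Chka and the arsenic methyltransferase gene As3mt rose by 1.43 ± 0.21 and 1.93 ± 0.29. Inmt, an indole methyltransferase, showed the steepest graded fall, from 22759, 23814 and 24695 to 1419.8, 155 and 79.6 (-6.50 ± 0.80, adjusted p = 0.0016). Ahcy, which clears S-adenosylhomocysteine, fell from 83908, 95313 and 69185 to 52737, 40807 and 28093, and Tpmt, the thiopurine methyltransferase, from 7359, 6836 and 7874 to 4988, 3966 and 4099. The calls of Nnmt, Chka, As3mt, Inmt and Tpmt held.

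Glucose metabolism had 1 higher (4 without KO_3) and 4 lower (2 without any library but KO_1 and 13 without KO_1) of 36 genes. Ldha, the lactate dehydrogenase chain, rose from 32351, 24968 and 24956 to 50812, 74253 and 61336 (1.17 ± 0.19, adjusted p = 0.00593), and Pdk1, a kinase that blocks pyruvate oxidation, fell from 2654, 2435 and 2540.3 to 1341, 974 and 877 (-1.28 ± 0.16, adjusted p = 0.00169). Gys2, the liver glycogen synthase, fell from 13476, 12080.2 and 13254 to 5798, 4906 and 2730.0 (-1.60 ± 0.23, adjusted p = 0.00339), and all 8 glycogen genes had a negative log2 fold change. None of 10 gluconeogenesis genes was called by limma or edgeR (1 higher by DESeq2, 1 higher and 1 lower at unadjusted p under 0.05). Of 19 lipogenesis genes limma called none higher (1 by DESeq2 and at unadjusted p under 0.05) and 2 lower (none by edgeR, 0 without any library but KO_1 and 5 without KO_1), Thrsp, an activator of fat synthesis (54038, 43689.6 and 53756 in WT and 31091, 4629 and 2680.2 in KO), and Me1, a source of NADPH (-0.95 ± 0.24). Fitm1 and Hsd17b13, proteins of lipid droplets, fell (-2.33 ± 0.32 and -0.48 ± 0.11). The calls of Ldha, Pdk1, Gys2 and Fitm1 held.

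Lipoprotein genes were split, with 5 higher (3 without KO_2, WT_1, WT_2 or WT_3) and 4 lower (2 without WT_1) of 20. Apoa4, an apolipoprotein that responds to dietary fat, rose from 12348, 7125 and 11424 to 30242, 92829 and 41535 (2.29 ± 0.36, adjusted p = 0.00517). Apon rose from 14574, 14141 and 13923 to 28756, 39399 and 33582 (1.24 ± 0.16, adjusted p = 0.00172), and Tm6sf2, needed for lipid loading of very low density lipoprotein, by 1.04 ± 0.20. The hepatic lipase gene Lipc fell from 13458, 12351 and 11521 to 8412, 2467 and 3159.8. Of 32 cholesterol genes 4 were higher (2 without KO_2, WT_1, WT_2 or WT_3) and 1 lower (5 without KO_1). Scarb1, the high-density lipoprotein receptor, was highest in KO_1, at 10199, 10699.6 and 8405 in WT and 22266, 19124 and 14954 in KO (0.93 ± 0.17, adjusted p = 0.00973), and Insig2, which restrains cholesterol synthesis, likewise, at 13559, 12506 and 7976 in WT and 26711, 19984 and 21654 in KO. Tm7sf2, which acts in a late step of synthesis, fell (-0.91 ± 0.24). The calls of Apoa4, Apon, Tm6sf2, Scarb1 and Insig2 held.

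Of 17 bile acid synthesis genes limma called none higher (1 by DESeq2 and at unadjusted p under 0.05) and 4 lower (1 without KO_2 and 7 without KO_1), led by Cyp7a1, the rate-limiting enzyme, which fell from 7835, 14121 and 8712 to 1459, 1116 and 156 (-3.96 ± 0.69, adjusted p = 0.00822) and was lowest in KO_3. Akr1d1, also called lower, lies within 10 Mb of Snd1 on chromosome 6. Other genes that lost large shares of the reads were Car3, a carbonic anhydrase of fat and liver, at 174549.9, 202832 and 168182 in WT and 92669, 4636 and 1635 in KO (-4.35 ± 1.11, adjusted p = 0.0391), and the aldo-keto reductase gene Akr1c6, at 86873, 79320.3 and 85183 in WT and 44176, 14064 and 12980.4 in KO. Both were intermediate in KO_1, and neither call held.

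Of 272 solute carriers, which move small molecules across membranes, 27 were higher and 13 lower, with a median of -0.01. Slc37a1, a sugar phosphate exchanger, rose from 56.6, 84.8 and 128 to 602, 1777 and 1496 (3.77 ± 0.42). Slc13a3, a carrier of dicarboxylates, and Slc41a3, a magnesium carrier, rose by 1.21 ± 0.15 and 1.5 ± 0.23 with little spread among KO livers. The citrate carrier gene Slc13a5, named after its values were seen, read 48, 45.3 and 47.1 in WT and 275, 2878 and 4162 in KO (4.96 ± 0.90, adjusted p = 0.00968). Slc5a6, the biotin and pantothenate importer, fell from 1431, 1423 and 1266 to 646, 648 and 539 (-1.17 ± 0.13), and Slc25a37, the mitochondrial iron importer, from 1891, 2160.0 and 2282 to 1566, 1177 and 1047. The higher count was 14 without WT_1, and the lower count ran from 3 without WT_3 to 46 without KO_1.

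Clock genes were called in both directions, 4 higher (2 without KO_2 or WT_3) and 9 lower (5 without WT_1) of 21. The labels say that the tissues were collected together but give no hour or order, so genotype and time of collection cannot be told apart for these genes. The activators Arntl, also known as Bmal1, and Clock rose from 115, 173 and 100.1 to 472, 438 and 756 and from 2188, 2652 and 1839 to 3769, 4038 and 3743. Per3, a repressor, fell from 1846, 1684 and 1995 to 479.7, 660.4 and 222 (-2.15 ± 0.33), and Ciart, another repressor, from 929, 934 and 618 to 203, 156 and 19. The cryptochrome gene Cry1 fell as well (-1.09 ± 0.19). Nr1d1, the repressor REV-ERB alpha, moved against the other repressors called and rose from 2229, 1596 and 1196 to 4909, 3812 and 2502. Among output genes Dbp fell from 3932, 3146 and 4134 to 1243, 1225 and 265, the cell cycle kinase gene Wee1 from 1234, 1277 and 1131 to 133, 161 and 36.2 and the ubiquitin protease gene Usp2 from 2138, 2617 and 1939.5 to 672, 350.5 and 94.1, and Nfil3, which competes with Dbp at D-boxes, rose from 829, 855 and 495 to 1305, 1801 and 2921. Unlike in most groups, KO_1 and KO_2 were close and KO_3 stood out for the list means of repressors and output genes. The 5 activators differed, with mean log2 deviations of 0.92, 0.34 and 0.97 in KO_1, KO_2 and KO_3. The 10 repressors deviated by -0.55, -0.55 and -1.56 in the same order. Output genes deviated by -1.16, -1.21 and -2.44 in KO_1, KO_2 and KO_3. The calls of Arntl, Clock, Per3, Cry1 and Wee1 held.

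Heat shock chaperones are given with KI beside KO, since Hspa8 and Hsph1 lay on opposite sides of WT in the mutants. Of 19 genes 3 were higher (0 without KO_2, KO_3, WT_1 or WT_2 and 2 without KO_1 or WT_3) and 4 lower (1 without KO_2 or WT_3 and 7 without KO_1) in KO than in WT, and the list deviated by 0.0, -0.20 and -0.14 in KO and by 0.80, 0.56 and 0.64 in KI. Hspa8, the constitutive cytosolic chaperone, read 45819.8, 41717 and 41617 in WT, 23697, 20469 and 21407 in KO and 73383, 66839 and 74039.7 in KI. It was thus lower in KO than in WT (-0.98 ± 0.14, adjusted p = 0.00339), and KO minus KI was -1.71 (adjusted p = 0.000202). Hsph1, its nucleotide exchange factor, fell from 3597, 3909 and 3986 to 2802, 2535 and 2463, with 7848, 6359 and 7003 in KI and a KO minus KI difference of -1.44 (adjusted p = 0.000147). The stress-inducible Hspa1b rose instead, from 95.9, 114 and 143 to 343, 317 and 343, with 146, 339 and 369 in KI, and so did its co-chaperone gene Bag3 (0.64 ± 0.17). Over all genes 8.45% were called between KO and KI. Both comparisons share the KO libraries. The call of Hspa8 held, that of Hspa1b stood in 2 of the 6 leave-one-out fits and that of Bag3 in none.

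Transcripts of proteins known to act with SND1 showed few calls. Of 39 SND1 partners and small RNA silencing genes 1 was higher and 1 lower by limma and edgeR, 4 and 5 at unadjusted p under 0.05, and 2 and 3 by DESeq2. Mtdh, the oncoprotein that binds SND1, read 2815, 2829.5 and 3008 in WT and 3472, 4417 and 3679 in KO (0.41 ± 0.11, adjusted p = 0.0452), and Prkra, a partner of Dicer, 772, 778 and 755 in WT and 546, 423 and 508 in KO (-0.65 ± 0.14, adjusted p = 0.0184). Ago2, the slicing Argonaute and named after its values were seen, read 999, 1748 and 1098 in WT and 1201, 1694 and 1017 in KO with overlapping groups. None of 21 Sm protein and spliceosome genes was called by limma, DESeq2 or edgeR (1 higher and 2 lower at unadjusted p under 0.05). Neither the call of Mtdh nor that of Prkra held.

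Protein turnover and translation genes were close to level. None of 31 proteasome genes was called by any of the 3 tools or at unadjusted p under 0.05. Of 74 ribosomal protein genes none was higher (2 at unadjusted p under 0.05) and 2 were lower (0 without KO_2, WT_1, WT_2 or WT_3 and 3 without KO_3), Rpl35a (-0.54 ± 0.14) and Rps18 (-0.49 ± 0.13). Of 26 Myc and ribosome biogenesis genes 1 was higher and 3 lower (1 without KO_2, WT_1 or WT_3 and 5 without KO_1). Odc1, the first enzyme of polyamine synthesis, fell from 4233, 4271 and 4619 to 2588, 3221 and 2484 (-0.67 ± 0.12) and held its call, the nucleolar proteins Npm1 and Ncl fell (-0.55 ± 0.12 and -0.38 ± 0.10), and Nop58, a core protein of small nucleolar particles, rose by 0.76 ± 0.18. None of the 13 genes of the mitochondrial genome was called by the 3 tools or at unadjusted p under 0.05, and of 27 nuclear oxidative phosphorylation genes 4 were lower (0 without any library but KO_1 and 21 without KO_1), all 27 with a negative log2 fold change. That list deviated by -0.12, -0.47 and -0.63 in KO_1, KO_2 and KO_3. Of 25 histone genes the linker histone H1f2 rose from 408, 385 and 585 to 884, 2334 and 2305 and H2bc4 by 0.54 ± 0.10.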

How the data were processed

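Liver RNA of 9 mice (3 each of WT, KO and KI) was made into stranded mRNA libraries, per the labels' protocols. The submitters' processing notes name TopHat2, Bowtie2, featureCounts and the build GRCm38. Versions, annotation, strand setting and scaling tool are not given in the sources used here. The values the authors deposited are a signal, gene read counts divided by 1 size factor per library (0.8921 to 1.1051), from which whole reads were recovered (at least 99.995% of values per library within 0.0051). From the deposited signal, log2(value + 1) of 15238 genes with a mean of at least 10 was tested with limma 3.58.1 in R 4.3.3, with a variance trend and 1 mean per genotype. All 9 libraries shared the spread (6 residual degrees of freedom). Tests were two-sided, and genes under a Benjamini-Hochberg adjusted p of 0.05 over all genes tested were called. The procedure was tested on simulated data with 67, 69 and 64 genes changed 1.5-fold, 2-fold and 4-fold. It recovered 1.5%, 26.1% and 64.1% of them, with 4 false calls, so a gene not called can still differ. The simulation gave each gene 1 dispersion for all groups, whereas the median SD of log2 values was 0.27 in KO and 0.19 in WT. It also changed fewer genes than were called in the data, so its rates need not hold for the data. edgeR 4.0.16 and DESeq2 1.42.0 on recovered reads, other scalings, filters and pseudocounts, and fits without single libraries were alternatives. Genes were followed by identifier, since 554 lack a symbol and 7 symbols are repeated.

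The members, lists and tests were chosen with earlier results of these data known. Named are Snd1, the 15 higher and 15 lower genes of smallest p (mean of at least 50, groups without overlap, predicted genes skipped), the 10 in each direction whose share of reads moved most, and up to 4 called members of a list in each direction. Named outside this rule, after their values were seen, were Cyp3a16, Il1rn, Il1b, Il6st, Tnfrsf1a, Tnfrsf1b, Bcl3, Zc3h12a, Saa3, Apcs, Orm3, Steap4, Mbl1, Thbd, Kng2, Cxcl1, Slc39a14, Hamp, Eif2ak3, Ctsl, Atp6ap1, A2m, Cyp3a41a, Cyp3a41b, Cyp3a44, S100a8, S100a9, Hnf4a, Cyp4a10, Slc41a3, Slc13a5, Ciart, Dbp, Usp2 and Ago2, and Alb and Clec4f as markers of tissue. No library repeats another (the closest replicates had a chi-square of 68.1 for each degree of freedom). Promoter windows are from the RefSeq table of GRCm38.p6, and gene positions are from GENCODE M21. Python 3.11 with numpy 2.4.6, pandas 2.3.3, scipy 1.17.1 and matplotlib 3.10.9 did the rest. Some genes are not reported here by name.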

Additional observations from a re-analysis of the deposited data

How the results depend on the processing

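The counts of called genes moved more than their direction, and no gene was called in the opposite direction under any alternative. Against 706 higher and 640 lower genes, DESeq2 called 1210 and 1084. With the share of pancreatic transcripts as a covariate the counts were 405 and 349, with the WT and KO libraries alone 495 and 376, without the 2 KI libraries with pancreatic transcripts (chosen after seeing the data) 495 and 385, and without all 3 such libraries 21 and 9. Leaving out 1 WT or KO library gave 266 to 1104 higher and 233 to 1412 lower genes, the highest without KO_1 and the lowest without KO_2 for higher and without WT_1 for lower genes. Scaling, filters, pseudocounts and edgeR kept both counts within 1.5 times, and scaling shifted the median of all genes by at most 0.02. The replicate numbers do not pair the samples (correlations of deviations -0.12, 0.07 and 0.08), and a fit with the replicate block called 817 and 734. Over all alternatives, named genes kept direction and side of the threshold in 4711 cases, lost the call in 1091, gained it in 20 and changed sign in 14, in 4 genes that were not called. Ago2, at 0.04, was -0.08 with the pancreatic covariate, -0.05 without the 3 libraries with pancreatic transcripts, and -0.17 to 0.28 with 1 library left out. Hamp, at 0.06, ranged from -0.09 to 0.21 and Des, a stellate cell marker at 0.24, from -0.25 to 0.66 with 1 library left out. Il1b, at -0.18, was 1.03 by DESeq2, 1.05 by edgeR, 0.02 with the pancreatic covariate, and -1.5 to 0.83 with 1 library left out.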
